A study of Mus musculus with 2 samples.

Results

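The miR-148 and miR-152 family comprises the mature microRNAs of the Mir148a, Mir148b and Mir152 hairpins, and 5 of the 1909 mature microRNAs listed for cultured mouse aortic smooth muscle cells belonged to it. Its members were taken by name as mmu-miR-148a-3p, mmu-miR-148a-5p, mmu-miR-148b-3p, mmu-miR-148b-5p and mmu-miR-152-3p (printed below without the species prefix), whatever their level. The 5p arm of the third hairpin, miR-152-5p, was listed too and is described beside them as the opposite arm. The members had been chosen with earlier results of these data known.

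Small RNA was sequenced from vascular smooth muscle cells (the contractile cells of the artery wall) taken from the thoracic aorta of male mice, 10 to 12 weeks old, and grown in serum-containing medium (DMEM/F-12 and 10% fetal bovine serum). The control library came from db/+ mice, labelled Lepr+/-, which carry 1 mutant and 1 working copy of the leptin receptor gene. The other came from db/db mice, labelled BKS.Cg-m+/+Leprdb/J and type 2 diabetic, which carry 2 mutant copies of that gene. Each group had 1 library, so every difference below is between these 2 libraries and no test between genotypes was possible. How many mice went into each culture is not given in the sources used here.

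A microRNA guides a silencing complex to messenger RNAs that pair with its seed, the bases from 2 to 8. In this family the 3p arm is the guide that is usually kept, and the 5p arm is the passenger that is usually degraded. The family is known for silencing DNMT1, the enzyme that copies DNA methylation to new strands, and DNMT3B, which sets new methylation. In liver, miR-148a is also known for lowering the cholesterol exporter ABCA1.

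The mature sequences are shown because the shared seed is what makes the 3 guides a family. They are the RefSeq sequences on GRCm38.p6, 5′ to 3′, with the seed in capitals, and all 5 members matched an entry by name.
miR-148a-3p: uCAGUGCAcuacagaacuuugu
miR-148b-3p: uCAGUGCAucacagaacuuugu
miR-152-3p: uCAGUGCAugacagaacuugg
miR-148a-5p: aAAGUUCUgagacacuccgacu
miR-148b-5p: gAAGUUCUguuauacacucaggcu
miR-152-5p: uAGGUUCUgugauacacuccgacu

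The guides carried the seed CAGUGCA, and among the 1623 listed microRNAs with a RefSeq sequence 0 others carried it. Over the 21 bases they could be compared on, 18 were the same in all 3 guides. Counted from base 1 at the 5′ end, miR-148b-3p differed from miR-148a-3p by C9U and U10C. The differences of miR-152-3p from miR-148a-3p were C9U, U10G and U20G, and those from miR-148b-3p were C10G and U20G. The guides were thus told apart mainly by bases 9 and 10. The sources used here do not give the mismatch limit or the rule for reads that fit more than 1 microRNA, so how reads were split among the guides could not be checked, and single values of the 2 rarer guides are uncertain to that extent. Among the same 1623 microRNAs, the 5p arms of miR-148a and miR-148b shared the seed AAGUUCU with each other and with 0 others. The seed of miR-152-5p was AGGUUCU.

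The hairpins are shown because the reads of each arm are compared below. The 5p arm and then the 3p arm are in capitals, joined by a loop in lower case.
Mir148a: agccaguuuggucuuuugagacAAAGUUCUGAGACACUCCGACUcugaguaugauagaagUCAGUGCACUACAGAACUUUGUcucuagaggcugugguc
Mir148b: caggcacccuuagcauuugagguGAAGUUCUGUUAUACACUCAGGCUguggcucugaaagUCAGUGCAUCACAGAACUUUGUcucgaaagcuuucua
Mir152: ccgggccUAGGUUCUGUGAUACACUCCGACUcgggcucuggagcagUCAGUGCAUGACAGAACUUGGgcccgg

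The 3 hairpin genes lay on different chromosomes of GRCm38 (the assembly also called mm10). Mir148a was at chr6:51269812-51269910 on the minus strand, and GENCODE M21 gave it no host gene on that strand. Mir148b was at chr15:103285125-103285221 on the plus strand, in intron 1 of Copz1, and Mir152 was at chr11:96850393-96850465 on the plus strand, in intron 1 of Copz2. The host genes are paralogs that encode the zeta subunits of the coatomer, the coat of vesicles that move between Golgi and endoplasmic reticulum. Neither hairpin overlapped an exon of a protein-coding transcript of its host. None of the 3 had another annotated microRNA gene within 50 kb, so no neighbour in a cluster could be compared with them.

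**Figure D1:**
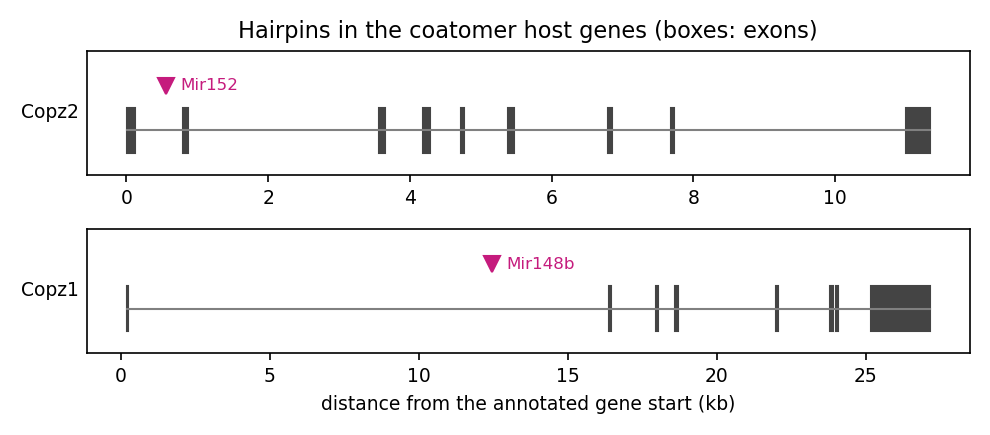
Positions of Mir152 in Copz2 and of Mir148b in Copz1, drawn along the longest annotated protein-coding transcript of each host, as distance from the annotated gene start in kb. Boxes are exons, the line is intron and the triangle marks the hairpin, which lies 523 bases from the gene start in Copz2 and 12411 bases from it in Copz1.

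The libraries held 25915732 counts (db/+) and 24295112 counts (db/db) on mature microRNAs, with 881 and 833 microRNAs detected. Levels are given as CPM, the counts per 1000000 microRNA counts of the library. A count of 0 would allow up to 3 counts, which is 0.116 CPM (db/+) and 0.123 CPM (db/db). The top 10 names took 90.2% (db/+) and 90.6% (db/db) of all counts, so a CPM is a share of a pool that a few names fill. Intervals below are exact (Clopper-Pearson, 95%). PCR copies could not be told apart in the counts used here, so these intervals cover the counting error of reads only. They leave out any added spread from PCR copies and the spread between mice or cultures.

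All 4 fixed smooth muscle markers (both arms of miR-143 and miR-145a) were detected in each library, and their summed level was 1656 CPM (db/+) and 1567 CPM (db/db). Endothelial markers (both arms of miR-126a) summed to 0.270 and 2.92 CPM, blood markers to 6.48 and 6.71 CPM and epithelial markers to 0.270 and 0.864 CPM. Of the 5 blood markers, miR-142a-3p and miR-223-3p had 0 counts in both libraries, and 4 (db/+) and 3 (db/db) of the 5 epithelial markers were detected. The epithelial sums rest on few counts: 3 and 12 (miR-200a-3p), 0 and 7 (miR-200b-3p) and 1 and 2 (miR-200c-3p), db/+ first. The other epithelial markers, miR-141-3p and miR-205-5p, were detected in the db/+ library only. The summed endothelial and summed epithelial levels were thus higher in the db/db library, as miR-148a-3p was. The part of these cell types in the difference of miR-148a-3p was not tested. In bulk RNA, fewer cells of a type and less RNA per cell cannot be told apart.

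The family was carried by miR-152-3p in both libraries, and of the 4 members with over 3 counts in a library only the rarer miR-148a-3p lay more than 2-fold apart between them. The 5 members together were counted 37800 times (1459 CPM) in the db/+ library and 31723 times (1306 CPM) in the db/db library. That is 0.146% and 0.131% of all microRNA counts. Their ratio, always given as db/db over db/+, was 0.895 (0.882 to 0.909), a net difference of -153 CPM made up mainly of -183 CPM on miR-152-3p and 30.2 CPM on miR-148a-3p. The order of the levels was the same in each library, from miR-152-3p through miR-148a-3p, miR-148b-3p and miR-148b-5p to miR-148a-5p. Neighbours in that order had separate counting intervals in both libraries.

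**Figure D2:**
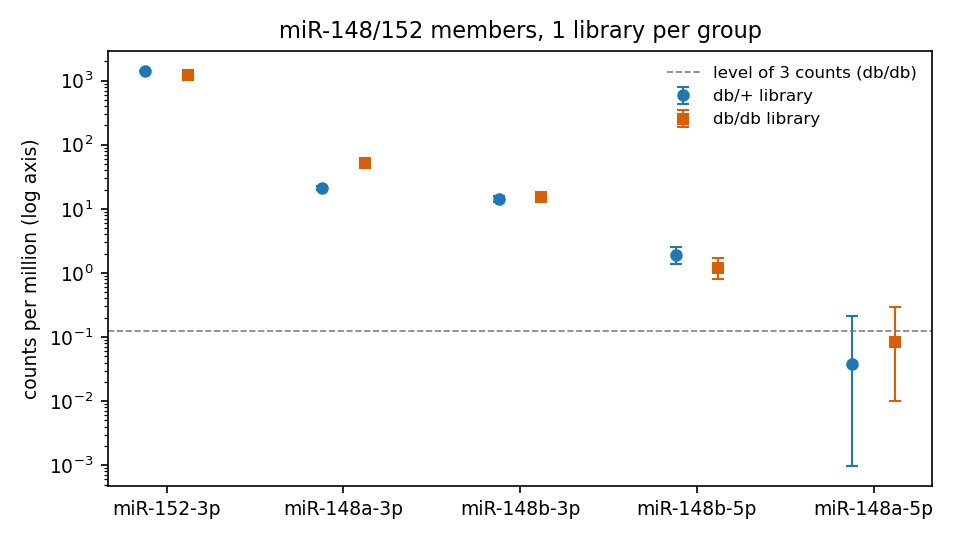
Level of each member in CPM on a log axis, for the db/+ library (circles) and the db/db library (squares), with 95% counting intervals and a dashed line at the level of 3 counts in the db/db library. The levels span from 1421 CPM for miR-152-3p in db/+ to below the level of 3 counts for miR-148a-5p, and miR-148a-3p is the member whose symbols stand clearly apart.

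The guide miR-152-3p, best known as a brake on DNMT1 and often lost in tumours, was counted 36838 times in the db/+ library and 30079 times in the db/db library. Its level was 1421 CPM (1407 to 1436) and 1238 CPM (1224 to 1252), rank 26 of the detected microRNAs in db/+ and rank 27 in db/db. The ratio was 0.871 (0.858 to 0.884), a log2 ratio of -0.20. This is a small difference that the depth measures precisely, and it was 0.907 to 0.932 under 5 other scalings, so its size depends on the scaling by more than the counting interval covers.

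The guide miR-148a-3p, best known as an abundant liver microRNA, was counted 548 times in the db/+ library and 1247 times in the db/db library. Its level was 21.1 CPM (19.4 to 23.0) and 51.3 CPM (48.5 to 54.3), so the intervals of the 2 libraries were far apart. It stood at rank 161 in db/+ and at rank 106 in db/db. Its ratio of 2.43 had an interval (2.19 to 2.69) wholly above 2, and the ratio was 2.53 to 2.60 under the 5 other scalings.

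The guide miR-148b-3p, which has the same seed, was counted 364 times in the db/+ library and 366 times in the db/db library. Its level was 14.0 CPM (12.6 to 15.6) and 15.1 CPM (13.6 to 16.7), with overlapping intervals. The ratio of 1.07 had an interval (0.925 to 1.24) that included 1 and excluded a 2-fold difference. Under the other scalings it was 1.12 to 1.15, and 1 stayed inside each interval.

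The passenger arms were rare. For miR-148b-5p there were 49 counts (1.89 CPM) in the db/+ library and 29 (1.19 CPM) in the db/db library, and the interval (0.385 to 1.02) of its ratio of 0.631 included 1. For miR-148a-5p there were 1 and 2 counts, at or under the level a count of 0 allows in each library, so no ratio is given. The arm opposite miR-152-3p, miR-152-5p, had 17 and 12 counts and a ratio of 0.753 (0.328 to 1.67). No difference in level between the libraries was detectable at this depth for any of these arms.

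The members were read against all microRNAs by a rule of size, which asked for 50 counts or more in either library and a ratio of 2 or more, or 0.5 or less. Of the 5 members 3 reached 50 counts, the 3 guides, and miR-148b-5p missed the floor by 1 count. Of these 1, miR-148a-3p, was higher by 2-fold or more in db/db, where the rule took 4.49% of the 356 microRNAs past the floor. At least 2-fold lower were 0 of the 3, against 13.5% of all. With 3 members these counts say little about the family as a group. By its ratio miR-148a-3p stood at place 12 from the top of the 356, miR-148b-3p at 128 and miR-152-3p at 195.

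**Figure D3:**
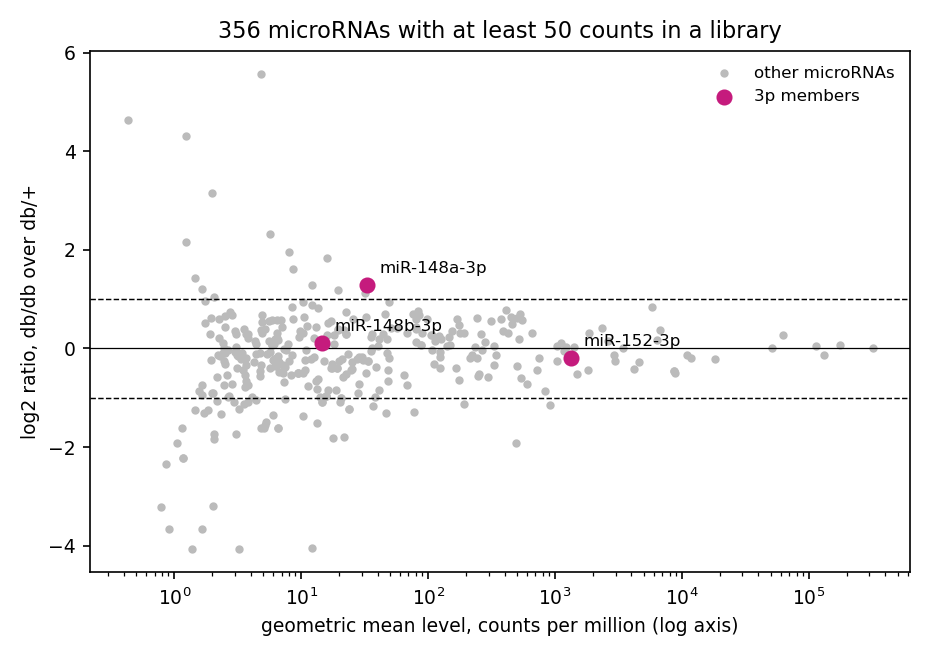
Log2 ratio of db/db over db/+ (0.5 counts added) against the geometric mean level in CPM on a log axis, for the 356 microRNAs past the floor of 50 counts (grey) and the 3 guides of the family (magenta, named). Dashed lines mark 2-fold; miR-148a-3p lies above the upper line, while miR-148b-3p and miR-152-3p lie near 0.

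Because the guides share a seed, their mix was compared within each library, which needs no scaling between libraries. In db/+ miR-152-3p made up 97.6% (97.4 to 97.7) of the guide counts, and in db/db 94.9% (94.7 to 95.1). For miR-148a-3p the share was 1.45% (1.33 to 1.58) in the db/+ library and 3.93% (3.72 to 4.15) in the db/db library. For miR-148b-3p it was 0.964% (0.868 to 1.07) and 1.15% (1.04 to 1.28), with overlapping intervals. In both mixes miR-152-3p supplied nearly all counts with the seed, 67.2 times the count of miR-148a-3p in db/+ and 24.1 times in db/db. These are shares of reads, and how reads of different guides relate to numbers of molecules was not measured.

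The ratios of the guides also differed from each other beyond counting error. That of miR-148a-3p was 2.26 times (1.89 to 2.71) that of miR-148b-3p and 2.79 times (2.52 to 3.09) that of miR-152-3p. The ratio of miR-148b-3p was 1.23 times (1.06 to 1.43) that of miR-152-3p, a smaller difference whose interval also excluded 1. Neither of the guides encoded in coatomer introns had a ratio as high as that of miR-148a-3p. Host messages were not measured, and whether the place of a hairpin in a host gene has a part in this was not tested. For scale, the count of miR-148b-3p was 0.988% of that of miR-152-3p in db/+ and 1.22% in db/db, and these guides differ by C10G and U20G.

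Arm usage set miR-148b apart from its relatives in both libraries. Its 5p arm held 11.9% (8.91 to 15.4) of the 413 hairpin counts of the db/+ library and 7.34% (4.97 to 10.4) of the 395 of the db/db library. For miR-148a the 5p share was 0.182% (0.00461 to 1.01) of 549 counts and 0.160% (0.0194 to 0.577) of 1249. For miR-152 it was 0.0461% (0.0269 to 0.0738) of 36855 counts and 0.0399% (0.0206 to 0.0697) of 30091. The intervals of miR-148b lay above those of the other hairpins in each library. They do not cover the split of reads among the guides, which could not be checked and enters these shares through the 3p counts. Between the libraries, the odds of a 5p over a 3p count for miR-148b were lower in db/db, at 0.589 times (0.350 to 0.975) those in db/+. That interval came close to 1 and rests on 49 and 29 counts of the 5p arm. The same odds ratio was 0.879 (0.0457 to 51.9) for miR-148a and 0.8645 (0.377 to 1.92) for miR-152, so a shift in arm usage of these hairpins was not detectable at this depth. The higher level of miR-148a-3p in the db/db library was thus seen on a hairpin whose 5p arm had at most 2 counts, too few to show whether that arm differed alike.

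**Figure D4:**
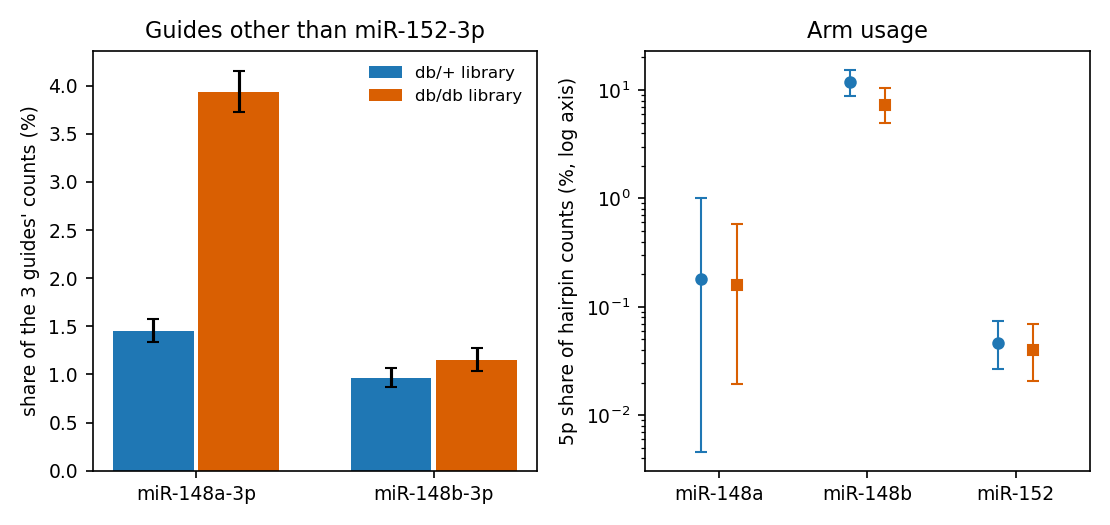
Left, share of the guide counts held by miR-148a-3p and miR-148b-3p in the db/+ library (blue) and the db/db library (orange), in percent, with miR-152-3p as the remainder. Right, 5p share of the counts of each hairpin in percent on a log axis; bars and symbols carry 95% counting intervals. The share of miR-148a-3p was 1.45% in db/+ and 3.93% in db/db, and the 5p share of miR-148b was above those of the other hairpins in both libraries.

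The microRNAs nearest to each guide in level were found by the Euclidean distance between log2 CPM values over the 2 libraries, which is a description on 2 points. Being near in both libraries makes the ratios alike by construction, so likeness of the ratios below is no result. Nearest to miR-148a-3p were miR-351-5p (561 and 1151 counts, distance 0.12), miR-351-3p (0.46) and miR-106b-3p (0.70). Of these, miR-351-5p had a ratio of 2.19 (1.98 to 2.43), and the other two had 1.55 and 1.51. For miR-148b-3p they were miR-10a-3p (0.06), miR-3473b (0.14) and miR-409-5p (0.24), with ratios of 1.13, 1.05 and 1.21. For miR-152-3p they were miR-30a-5p (0.19), miR-1839-5p (0.24) and miR-143-3p (0.26). Their ratios were 1.01, 1.02 and 0.971 (above 1 for miR-143-3p under the 5 other scalings).

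Other microRNAs reported to target DNA methyltransferase messages were described as a list of 14, drawn from general knowledge, for some of which values in these data were already known. Of the 12 past the floor, 0 were higher by 2-fold or more in db/db and 1 was lower by as much, against 4.49% and 13.5% of all. Ratios were above 1 for 2 of the 12 and for 153 of the 356, and the median log2 ratio was -0.33 for the list and -0.14 for all. Under the 5 other scalings 3 of the 12 were above 1, since miR-143-3p changed side.

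Within the list, the miR-29 family, known for targeting DNMT3A and DNMT3B, had ratios of 0.860 (miR-29a-3p), 0.702 (miR-29b-3p) and 0.597 (miR-29c-3p). The most abundant of the 14 was miR-29a-3p, at 19498 CPM (db/+) and 16771 CPM (db/db), far above any guide of the miR-148 and miR-152 family. For miR-185-5p, reported to target DNMT1, the values were 2113 and 1560 CPM, a ratio of 0.738. The member past 2-fold was miR-377-3p, counted 230 and 73 times, at a ratio of 0.339 (0.257 to 0.442). Ratios were 0.605 for miR-26b-5p, 0.661 for miR-26a-5p, 0.872 for miR-101b-3p and 0.906 for miR-221-3p. Above 1 were miR-101a-3p at 1.05 (0.993 to 1.12) and miR-342-3p at 1.15 (1.09 to 1.203), and miR-143-3p had 0.971 (over 1 under the other scalings). Under the floor were miR-126a-3p with 5 and 13 counts and miR-203-3p with 5 and 7.

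The letters that pair with the guide seed, TGCACTG on the message strand, were searched in GENCODE M21 messages, with 1 protein-coding transcript per gene. Of 20617 genes 11.5% held them in the 3′ untranslated region. Dnmt1 held 1 match in 312 bases, where 2.995% of 1803 regions within 20% of that length held any. Abca1 held 2 in 3156 bases (24.7% of regions of like length). In Dnmt3a, Dnmt3b and Cdkn1b (an inhibitor of the cell cycle) there were 0 in this region. Of regions of like length, 42.0%, 13.0% and 27.2% held any, in that order. The coding parts of Dnmt3a and Dnmt3b held 1 each, and no share over all coding parts was computed. The messages themselves were not measured, so these matches describe sequence only. The match in Dnmt1 is shown because this gene is the best known target, with the paired letters in capitals and the next base, an A, after them.
Dnmt1 (chr9:20907492-20907498, minus strand): acccagagccccacgTGCACTGa

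**Figure D5:**
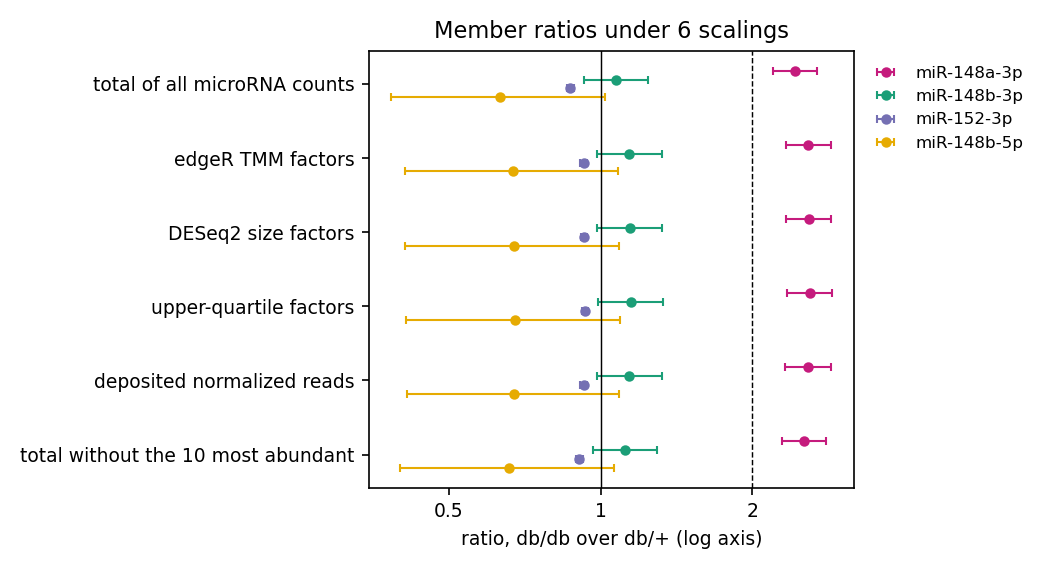
Ratio of db/db over db/+ on a log axis for the 3 guides and miR-148b-5p, with 95% counting intervals, under the total of all counts and 5 other scalings. The intervals for the deposited reads treat normalized values as counts and are approximate. The interval of miR-148a-3p lies above 2 (dashed line) under each scaling, that of miR-152-3p below 1, and those of miR-148b-3p and miR-148b-5p include 1.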

How the data were processed

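Mature microRNAs were counted in 1 db/+ and 1 db/db library of cultured aortic smooth muscle cells. Each deposited table gives raw counts of reads per mature microRNA and a TMM-normalized value, per the file headers. The normalized values were whole numbers, so this deposited column was treated as a score and used as an alternative scaling only. Novoalign, edgeR and mm10 appear in the submitters' processing notes, without versions or roles. The sources used here do not give the trimming, mismatch limits or microRNA catalogue.

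Counts were scaled to the library total. Ratios carry an exact conditional (Clopper-Pearson) 95% interval, comparisons of 2 ratios or of arm usage an exact conditional odds ratio interval (for arm usage added after the results were seen, with the deposited reads as its alternative), and log2 ratios have 0.5 counts added. With 0 residual degrees of freedom no p-value was computed. Totals were 25915732 and 24295112 counts. The intervals and the rule of 2-fold with 50 counts were run on simulated counts that held counting error only. The simulation had no PCR copies and no spread between mice or cultures, so it cannot show how the rule performs under these. Alternatives were edgeR 4.0.16 (TMM and upper-quartile factors), DESeq2 1.42.0 size factors, the deposited normalized reads, totals without the 10 most abundant microRNAs, floors of 10, 100 and no counts, a 1.5-fold limit, identical counts taken once, and 0.1 or 5 counts added. Python 3.11.15 and scipy 1.17.1 were used.

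The members and lists were chosen with earlier results of these data known. Named microRNAs were the members, the arm opposite miR-152-3p, listed microRNAs that share a seed, the 3 nearest in level to each guide, the list of reported methyltransferase regulators and the cell type markers. The messages scanned for seed matches were chosen after the counts were opened. Sequences came from RefSeq on GRCm38.p6 and gene models and messages from GENCODE M21. For 1 gene 1 transcript was scanned, that with the longest coding part.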

Additional observations from a re-analysis of the deposited data

How the results depend on the processing

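No paired analysis was possible because there was 1 library in each group, and for the same reason no library could be left out. Of 107 alternative values, 81 stayed inside the counting interval, within 1.5 times for counts or within 0.1 for a median. Guide shares, arm shares, arm odds and comparisons of 2 ratios had the deposited reads as their only alternative. That rescaling cancels in them apart from rounding, so they were bound to stay and are no check. The ratios of miR-152-3p, the 5 members and the 3 guides lay outside their counting intervals under each of the 5 other scalings. Scaling alone shifted all ratios: that of miR-152-3p was 0.925 with edgeR TMM factors and with deposited reads, 0.927 with DESeq2, 0.932 with upper-quartile factors and 0.907 without the 10 most abundant. The ratio of the 5 members was 0.951 (both TMM scalings), 0.953, 0.957 and 0.933 in the same order, and that of the 3 guides 0.952 (edgeR TMM), 0.951 (deposited, 0.9515 before rounding), 0.953, 0.958 and 0.933. In the methyltransferase list 1 was at least 2-fold higher without a floor and at a floor of 10 (miR-126a-3p, which then enters), 4 were at least 1.5-fold lower, and the median log2 ratio was -0.22 and -0.21 in these cases, floor 10 first. Over all microRNAs the rule took 46 higher with a floor of 10 counts, 171 without a floor and 48 at 1.5-fold, and it took 91, 259 and 86 lower. These counts follow from the thresholds. Depth limits the 5p arms, where 1 to 49 counts stood behind each value.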
